A study of Mus musculus with 48 samples.

Results

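The mRNAs of 10 transcription regulators of the astrocyte lineage (Sox9, Sox2, Nfia, Nfib, Nfix, Hes5, Id4, Lhx2, Rorb and Zbtb20) were followed in ribosome-bound RNA of mouse astrocytes and of their perisynaptic processes. The genes were chosen by name, as regulators whose proteins act in the nucleus, and were matched by symbol to 10 of the 47643 Ensembl gene IDs counted. In the Tg(Aldh1l1-eGFP/Rpl10a) JD130Htz line (Aldh1l1:L10a-eGFP), a ribosomal protein fused to green fluorescent protein is made under the Aldh1l1 promoter, which is active in astrocytes, and an antibody to the fluorescent protein retrieves tagged ribosomes with the RNA they hold. The compartments were full astrocytes (Astro) and perisynaptic astrocytic processes (PAP) of the dorsal hippocampus. The sample titles number the libraries C1, C2 and C3 in each compartment, and these were read as 3 animals that each gave both. Each library had 8 technical replicates that were summed, so that n = 3 per compartment. Both compartments shared the transgene, the tissue and the antibody, age and sex are not given in the sources used here, and what the pulldown retains depends on where the transgene is made.

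Transcription factors are made on cytoplasmic ribosomes and carried into the nucleus, which lies in the cell body, away from the fine processes that wrap synapses. SOX2 and SOX9 are high mobility group box factors of neural stem cells and glia, and SOX9 acts with NFIA when astrocytes are first specified. The NFI proteins (NFIA, NFIB, NFIX) bind DNA as dimers, HES5 is a repressor switched on by Notch, and ID4 is a helix-loop-helix protein without a DNA-binding region that is induced by BMP signals and holds other helix-loop-helix proteins off DNA. LHX2 is a LIM homeodomain factor, RORB a nuclear receptor and ZBTB20 a zinc finger repressor known from hippocampal development. Astrocytes or their progenitors make all of these, and neurons make some of them too.

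Summed libraries held 18707844 to 20293538 counts in Astro and 1829962 to 2980984 in PAP. The floor used here for a detectable level, 3 counts, equalled at most 0.176 CPM for Astro libraries and 1.53, 1.55 and 0.991 CPM for PAP of animals 1, 2 and 3. CPM are counts divided by the size of their library, brought to one common scale and adjusted by TMM factors, which correct for differences in composition. All 10 genes were counted in each Astro library, and 9, 10 and 10 of them in PAP of animals 1, 2 and 3, with the same numbers when every library was thinned to 1829962 counts. Known astrocyte genes for membrane and cytoplasmic proteins (25 genes, among them Slc1a2, Aqp4 and Aldh1l1) summed to 45827 to 75260 CPM in Astro and 8848 to 34349 in PAP. Neuronal markers (16 genes) summed to 1223 to 2025 CPM in Astro and 596 to 1500 in PAP, oligodendrocyte markers (11 genes) to 811 to 893 and 575 to 1016, microglial markers (11 genes) to 48.2 to 106 and 81.3 to 220, and endothelial and mural markers (12 genes) to 27.0 to 50.8 and 16.0 to 43.6. Of the microglial markers, Cx3cr1, P2ry12, Tmem119 and Aif1 were at 0 in each PAP library, while Ctss, at 9.67, 11.3 and 3.76 CPM in Astro, stood at 121, 188 and 2.64 in PAP and made up most of the list's sum in animals 1 and 2.

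Of the 10 regulators, Id4, Sox2 and Sox9 were lower in PAP than in Astro by the test across all genes, none was higher, and the other 7 did not pass it, beside 15.4% of all genes called lower and 5.92% higher. With the animal as a block in the model, or by limma voom, none of the 10 was called. Sox2 showed the lowest share, with a PAP mean at 4.07% of its Astro mean, and Id4 the steepest loss of CPM. Zbtb20, Nfix and Nfia had PAP means close to or above those of Astro. The plot of the 10 genes by library gives each value, and the families follow in turn. In bulk pulldowns such as these, fewer processes or cells of a type and less RNA per cell cannot be told apart.

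**Figure D1:**
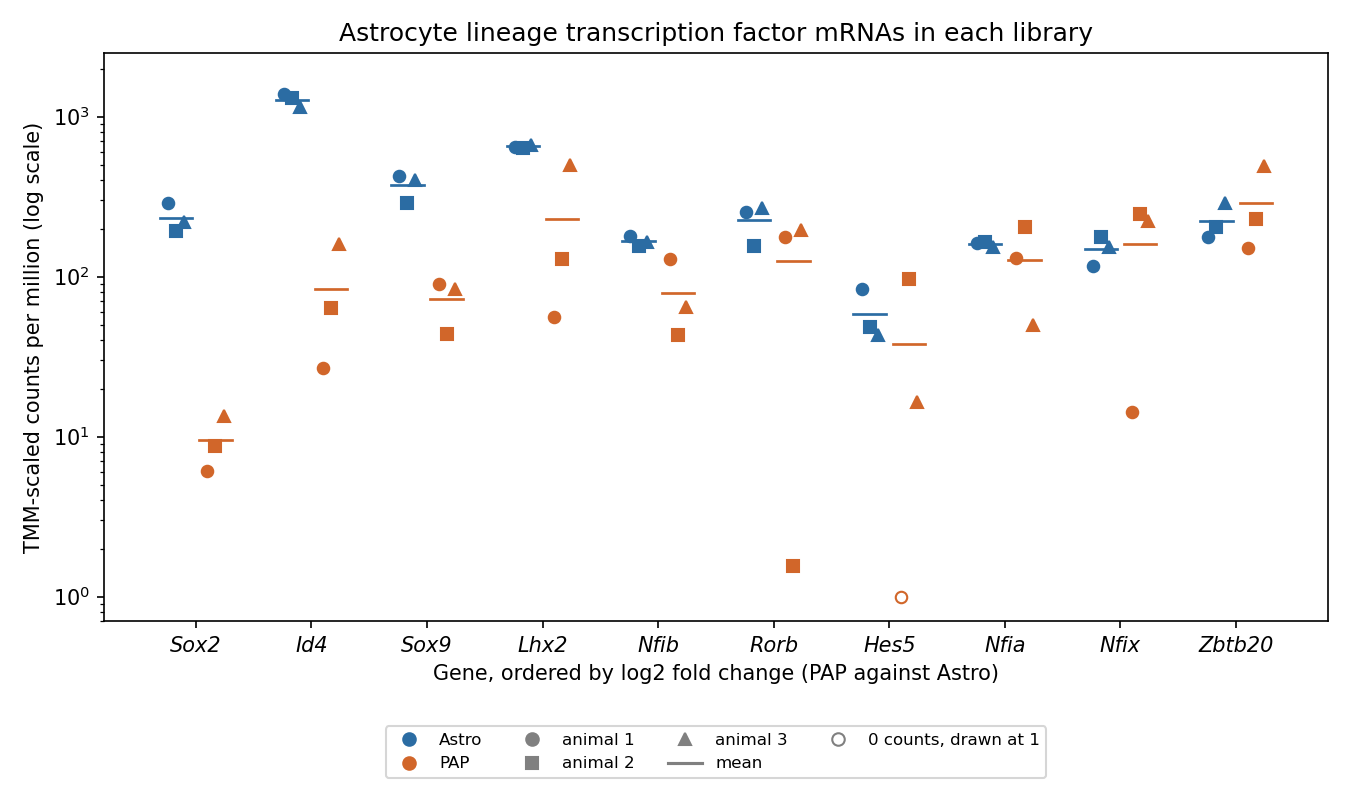
Level of each of the 10 genes in the 3 Astro and the 3 PAP libraries, in TMM-scaled CPM on a log axis, with 1 symbol per animal, a line at each mean and the 0 of Hes5 drawn open at 1. Sox2, Sox9, Id4, Nfib and Lhx2 have every PAP library under every Astro library, and the PAP libraries spread more widely than the Astro libraries for each gene.

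Sox2 (ENSMUSG00000074637, chr3:34650405-34652461, plus strand of GRCm38) has a single exon. It stood at 288, 192 and 219 CPM in Astro of animals 1, 2 and 3 and at 6.12, 8.76 and 13.5 CPM in PAP, the latter resting on 12, 17 and 41 counts. Every PAP library lay far below every Astro library, and the counts came from 6, 6 and 8 of the 8 technical replicates. The log2 fold change (PAP against Astro) was -4.61 ± 0.51 (SE), with an adjusted p of 0.00741 by the quasi-likelihood test of edgeR with Benjamini-Hochberg adjustment. Over the 14618 genes tested, Sox2 moved from above 94.4% of genes in Astro to above 37.6% in PAP, by mean CPM.

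Sox9 (ENSMUSG00000000567, chr11:112782224-112787760, plus strand, 3 exons), the factor most often used to mark astrocyte nuclei, was at 427, 289 and 403 CPM in Astro. Its PAP libraries held 90.3, 43.8 and 83.9 CPM, or 177, 85 and 254 counts. The groups were well apart in each animal, with the log2 difference between PAP and Astro at -2.24, -2.72 and -2.26. The log2 fold change was -2.36 ± 0.40 with an adjusted p of 0.0208 in edgeR. Within the animals, Sox9 gave the narrowest range of differences among the 10 genes, and Sox2 differed by -5.56, -4.45 and -4.01.

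Id4 (ENSMUSG00000021379, chr13:48261228-48266026, plus strand, 3 exons) was the most abundant of the 10 in Astro, at 1392, 1299 and 1142 CPM, above 99.5% of the tested genes. In PAP it stood at 27.0, 63.4 and 160 CPM, from 53, 123 and 485 counts. The groups did not overlap, while the 3 PAP libraries differed from each other by several fold, and the level was 51.5-, 20.5- and 7.12-fold lower than in Astro of the same animal. Its log2 fold change was -3.93 ± 0.68, adjusted p 0.0208 in edgeR.

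These 3 calls depended on how the animals entered the model. With the animal as a replicate block, edgeR gave an adjusted p of 0.0659 for Sox2, 0.121 for Sox9 and 0.067 for Id4, at log2 fold changes of -4.66, -2.41 and -4.29, and none of the 10 genes was called, although 4 had an unadjusted p under 0.05. Over all 14618 genes, 15.4% were called lower and 5.92% higher (21.3% in either direction), and with the block 0.0342% lower and 0.876% higher (0.91%). By limma voom with weights per group, none of the 10 was called, at -4.66 for Sox2, -2.37 for Sox9 and -4.11 for Id4, while 19.9% of all genes were called lower, and by DESeq2's Wald test the same 3 were called, beside 23.6%. Without Astro of animal 1 or without Astro of animal 3 none of the 10 was called either, and without Astro of animal 2 Sox2 was called and the others were not, in models where 1 to 5 genes in all were called lower. The log2 fold changes without 1 Astro library were -4.70 to -4.43 for Sox2, -2.48 to -2.25 for Sox9 and -3.99 to -3.88 for Id4. They moved more without 1 PAP library, at -5.03 to -4.42 for Sox2, -2.59 to -2.16 for Sox9 and -4.89 to -3.56 for Id4.

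The upstream sequence of Sox2 and Id4 is shown because these 2 genes had the largest falls. Each line gives the 250 bases before the RefSeq start (GRCm38.p6, plus strand, chr3:34649745-34649994 for Sox2 and chr13:48260866-48261115 for Id4), and capitals mark a SOX word (ACAAAG) or an RBPJ word (TGGGAA), either as written or as its reverse complement.
Sox2: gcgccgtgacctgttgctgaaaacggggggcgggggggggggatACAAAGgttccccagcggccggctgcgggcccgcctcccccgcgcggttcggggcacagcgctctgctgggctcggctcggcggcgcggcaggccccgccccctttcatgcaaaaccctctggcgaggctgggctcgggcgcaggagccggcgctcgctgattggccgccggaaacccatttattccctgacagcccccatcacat
Id4: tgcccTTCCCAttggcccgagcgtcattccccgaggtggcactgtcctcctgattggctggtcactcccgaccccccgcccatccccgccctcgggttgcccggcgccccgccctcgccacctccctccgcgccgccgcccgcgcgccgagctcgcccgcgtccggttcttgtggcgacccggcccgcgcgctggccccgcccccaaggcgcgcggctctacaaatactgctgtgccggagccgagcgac
The SOX word occurred on either strand in 16.5% of all 32851 such windows, and the RBPJ word, which resembles what the Notch effector binds, in 21.6%. RefSeq windows matched 8 of the 10 genes (13 windows), of which 6 windows of 5 genes held the RBPJ word and 3 windows the SOX word. An NFI word (TTGGC, 5 bases of any kind, then GCC) was in none of the 13 and in 1.22% of all windows. These 3 words do not share letters that would make one match count as another, and a match is a description of the letters only.

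Relatives of these genes were read from a list of 26, of which 22 were tested. Of those, 6 were called lower in PAP and none higher, beside 15.4% called lower among all genes tested, and none with the animal as a block. Id2 and Id3, the other abundant Id genes, were among them. Id2 stood at 2507, 1837 and 1985 CPM in Astro and at 45.4, 274 and 400 in PAP (log2 fold change -3.13 ± 0.75, adjusted p 0.0290 in edgeR). Id3 was at 867, 517 and 659 CPM in Astro and at 24.5, 144 and 133 in PAP (-2.76 ± 0.68, adjusted p 0.0320). Both had their lowest PAP level in animal 1, as had Id4. Id1 was lower by its means but did not pass, with 110, 104 and 93.1 CPM in Astro and 0, 51.5 and 5.95 in PAP (adjusted p 0.388).

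Among Sox relatives, Sox8, a close relative of Sox9, was called lower (adjusted p 0.0208 in edgeR, 0.177 with the block). It had 1453, 595 and 1272 counts in Astro, or 78.1, 34.9 and 64.6 CPM, and 1, 0 and 1 counts in PAP. Exons of Sox8 overlap 2810468N07Rik on the other strand, and their reads cannot be told apart in libraries that do not mark strand. Sox21, which counteracts SOX2 in progenitors, was at 145, 116 and 95.6 CPM in Astro and at 0, 43.8 and 14.2 in PAP, and did not pass (adjusted p 0.307). It overlaps Gm4675 on the other strand, with 206 counts in PAP of animal 3, and is uncertain for the same reason. The list as a whole had a median log2 fold change of -2.58, or -2.48 with genes at the floor set to their bound, beside -0.53 over all genes tested, and its level summed to 3401 to 4597 CPM in Astro and 361 to 1162 in PAP.

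**Figure D2:**
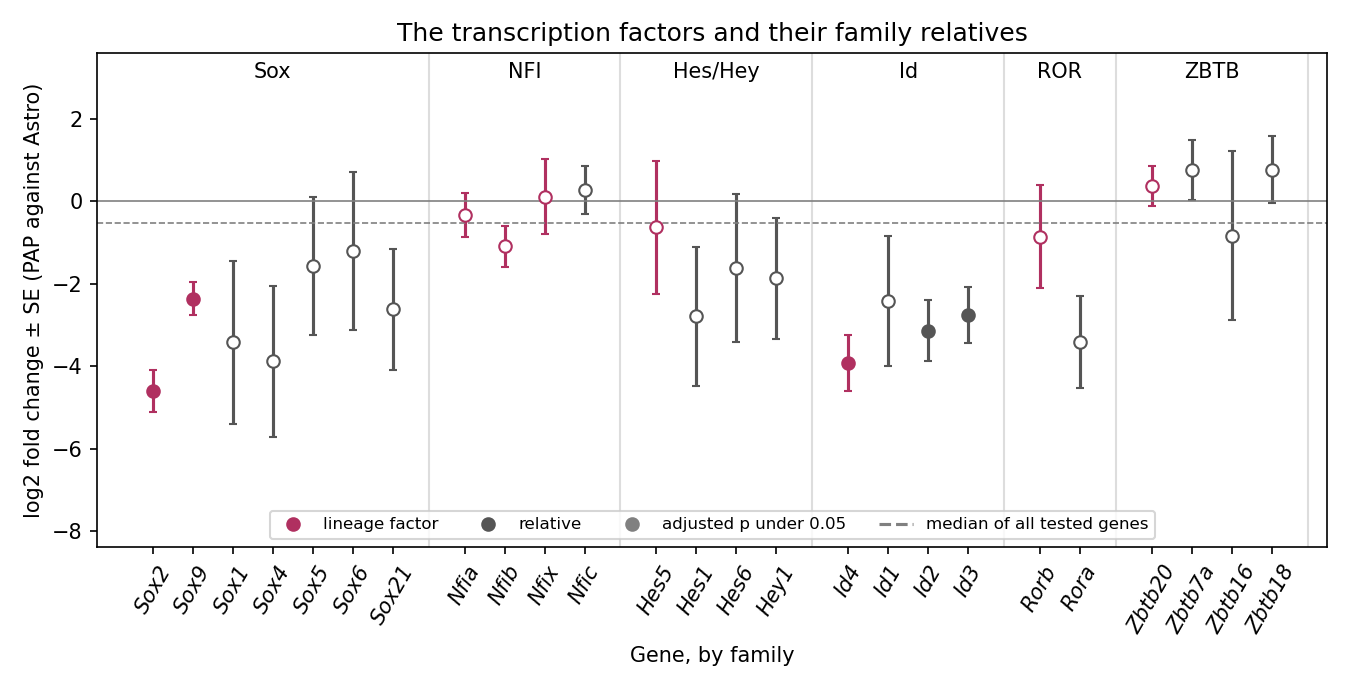
Log2 fold change of PAP against Astro for the 10 genes and their relatives by family, with bars of 1 SE, filled symbols at an adjusted p under 0.05 in edgeR and a dashed line at the median of all genes tested (-0.53). Relatives not tested, under 10 CPM in Astro or at or under 3 counts in each PAP library are left out, as is Lhx2, which had no relative left. Id2 and Id3 are filled beside Id4, and the 4 NFI genes lie near the dashed line or 0.

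Hes5 (ENSMUSG00000048001, chr4:154960923-154962371, plus strand), the Notch-driven repressor, did not pass the test and had the highest coefficient of variation of the set in PAP (137%). Astro held 83.8, 48.7 and 43.5 CPM. PAP held 0, 96.9 and 16.5 CPM, from 0, 188 and 50 counts. In animal 1 no count appeared in any of 8 technical replicates, where the floor put it at least 54.7-fold lower than Astro, in animal 2 PAP was 1.99-fold higher than Astro, and in animal 3 it was lower again. The log2 fold change was -0.63 ± 1.62 (adjusted p 0.858 in edgeR). It was -0.09 without PAP of animal 1, -2.87 without PAP of animal 2, -0.34 without PAP of animal 3, -0.29 without Astro of animal 1 and -1.96 with the block, and did not pass in any of these. At equal depth, Astro still had 134, 70 and 63 Hes5 counts. Exons of Hes5 overlap Gm20421, and those of Id4 overlap A330033J07Rik, on the opposite strand, so both levels are uncertain, since the library kit does not mark strand.

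Other genes of the Notch and BMP pathways, which act upstream of Hes5 and the Id genes, were taken from a list of 24, with 21 tested. Numb, an inhibitor of Notch, and Acvr1 and Smad9, a receptor and a signal transducer of BMP, were called lower and none higher, beside 15.4% of all genes called lower, and none with the block. Each of these 3 was at or under 3 counts in every PAP library. The list's median log2 fold change was -0.84, or -0.77 with such genes at their bound, and its sum was 811 to 916 CPM in Astro and 323 to 736 in PAP. Of the relatives of Hes5, Hey2 and Heyl were called lower, with adjusted p of 0.0208 and 0.0226 in edgeR and 0.206 for each with the block. Hey2 had 279, 246 and 209 counts in Astro and 0 in each PAP library, and Heyl had 48, 42 and 45 counts in Astro and 0, 0 and 1 in PAP. Hey1 and Hes1 were both at 0 in PAP of animal 1 and did not pass. Hey1 read 227, 146 and 192 CPM in Astro against 0, 96.9 and 57.5 in PAP. Hes1 read 92.5, 46.8 and 40.2 CPM against 0, 1.55 and 24.1.

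Lhx2 (ENSMUSG00000000247, chr2:38339281-38369733, plus strand, 5 exons) was the second of the set in Astro and the steadiest, at 651, 637 and 667 CPM. In PAP it was at 56.1, 130 and 500 CPM, from 110, 252 and 1513 counts. The groups did not overlap, but PAP of animal 3 was near Astro while PAP of animal 1 was far below. The log2 difference within animals was -3.53, -2.29 and -0.41, and the log2 fold change of -1.51 ± 0.76 did not pass (adjusted p 0.250 in edgeR). Without PAP of animal 3 it was -2.87 and called lower, with an adjusted p of 0.0189 in edgeR. In that fit 3335 of 16523 genes were called lower. Lhx2 did not pass without PAP of animal 1 (-1.09), without PAP of animal 2 (-1.29) or with the block (-2.10).

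Among the NFI genes, Nfib (ENSMUSG00000008575, chr4:82290173-82705750, minus strand) was the one whose groups did not overlap. It stood at 181, 156 and 165 CPM in Astro and at 128, 43.3 and 64.4 in PAP, and was lower in each animal. The log2 fold change of -1.09 ± 0.50 did not pass (adjusted p 0.20 in edgeR), and without PAP of animal 1, the library nearest to Astro, it was -1.68 with an adjusted p of 0.0309. In that fit 3214 of 16390 genes were called lower. Nfib did not pass without PAP of animal 2 (-0.86), without PAP of animal 3 (-1.03) or with the block (-1.24).

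Nfia (ENSMUSG00000028565, chr4:97772734-98118874, plus strand) was nearly level in Astro, at 163, 164 and 153 CPM. PAP held 130, 204 and 49.6 CPM, with animal 2 above and animals 1 and 3 below their own Astro library. Its log2 fold change was -0.33 ± 0.54 (adjusted p 0.767 in edgeR), and it moved to -0.90 without PAP of animal 2 and to -0.007 without PAP of animal 3, passing in neither. Exons of Nfia overlap the antisense gene E130114P18Rik, which had 103, 104 and 108 counts per 100 Nfia counts in Astro and 20.0, 9.37 and 407 in PAP, so the Nfia level is uncertain, since the library kit does not mark strand.

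Nfix (ENSMUSG00000001911, chr8:84699876-84800344, minus strand) stood at 117, 176 and 154 CPM in Astro and at 14.3, 247 and 222 in PAP. PAP of animal 1 was far under Astro, with 28 counts, and the other 2 were above it, with 479 and 671. The log2 fold change of 0.11 ± 0.90 (adjusted p 0.957 in edgeR) had the opposite sign with the animal as a block, at -0.53. Nfix overlaps G430095P16Rik on the opposite strand, which had 11.2, 14.5 and 12.6 counts per 100 Nfix counts in Astro and 17.9, 15.0 and 8.05 in PAP, so its level is uncertain as well. Nfic, the fourth NFI gene, was at 61.9, 65.0 and 60.5 CPM in Astro and at 109, 32.5 and 86.6 in PAP, and did not pass either (0.28 ± 0.58, adjusted p 0.815).

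Rorb (ENSMUSG00000036192, chr19:18930605-19111196, minus strand) was at 255, 156 and 269 CPM in Astro and at 177, 1.55 and 196 in PAP. The low value of animal 2 was 3 counts, spread over 3 of 8 technical replicates, which puts PAP 101-fold below Astro of that animal, with an exact Poisson interval (95%, counting error only) of 34.4 to 488. The other 2 animals lay closer, at log2 differences of -0.52 and -0.46. The log2 fold change was -0.86 ± 1.25 (adjusted p 0.731 in edgeR). Without PAP of animal 2 it was -0.34, without PAP of animal 3 -1.41 and with the block -1.88, none of which passed. Rora, the related nuclear receptor, was low in all PAP libraries, at 3.57, 2.06 and 31.1 CPM against 126, 130 and 139 in Astro, and missed the threshold (-3.41 ± 1.11, adjusted p 0.0806). Rora overlaps Gm15511 on the opposite strand, so its level is uncertain too.

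Zbtb20 (ENSMUSG00000022708, chr16:42875881-43642602, plus strand) had the highest PAP mean of the set, 290 ± 178 CPM (SD, n = 3), against 224 ± 58.1 in Astro. By library it stood at 177, 205 and 289 CPM in Astro and at 150, 230 and 490 in PAP, with 294, 446 and 1483 counts. The ranges overlapped, animal 1 being slightly lower in PAP and animals 2 and 3 higher. Its log2 fold change was 0.37 ± 0.50 (adjusted p 0.702 in edgeR), and without PAP of animal 3 it turned to -0.30. Zbtb18, a related repressor of neurons and glia, was at 86.1, 99.9 and 143 CPM in Astro and at 39.8, 408 and 114 in PAP.

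**Figure D3:**
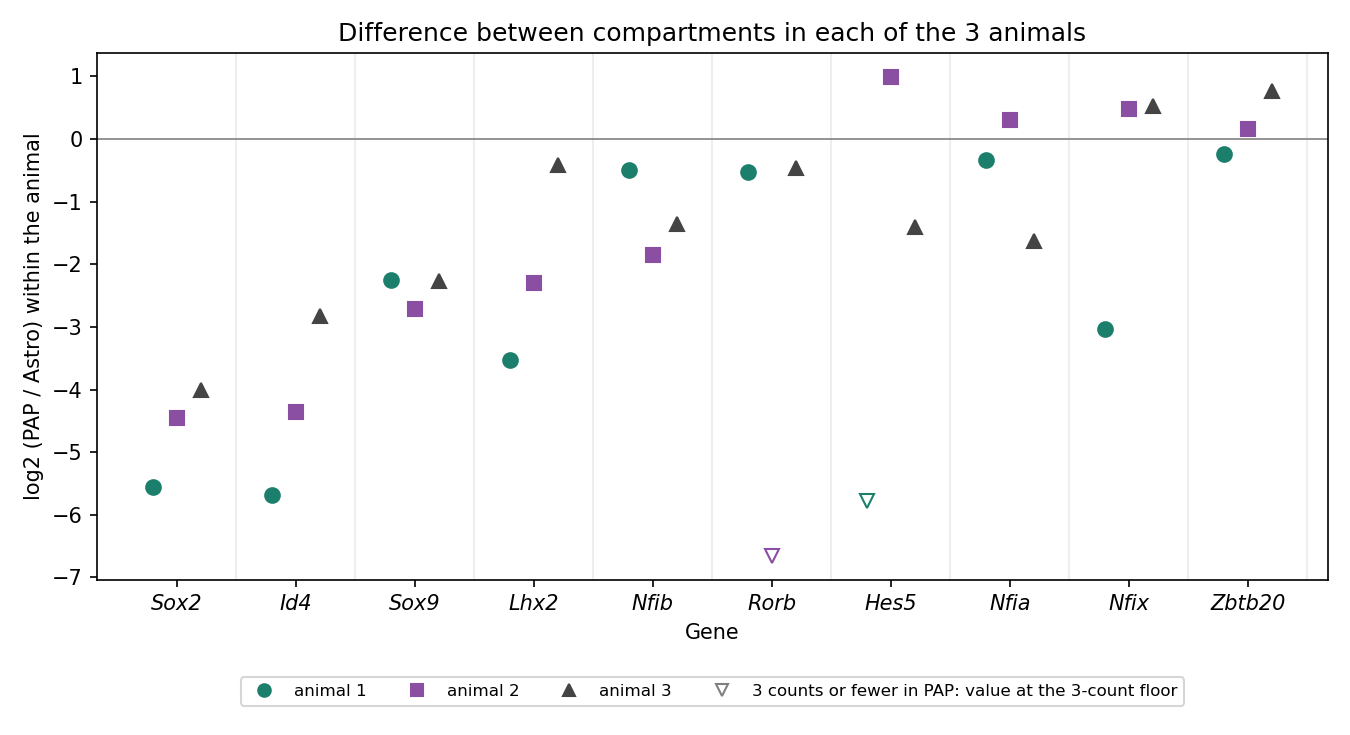
Log2 difference between PAP and Astro of the same animal for each of the 10 genes, 1 symbol per animal, with levels at or under 3 counts drawn at their bound. Sox2, Sox9 and Id4 are well below 0 in each animal, while Nfix and Hes5 in animal 1 and Rorb in animal 2 lie far below the other 2 animals.

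Over the set, 3 of 10 genes were called lower and 0 higher, beside 15.4% and 5.92% of all genes tested. Groups did not overlap, with PAP lower, for 5 of 10 (Sox9, Sox2, Nfib, Id4 and Lhx2), beside 35.1% of all genes, and with PAP higher for 0 of 10, beside 10.9%. PAP was lower in all 3 animals for 6 of 10, beside 40.0%, and the log2 fold change was below 0 for 8 of 10, beside 60.9%. The median log2 fold change was -0.97, beside -0.53 over all genes, and with the block it was -1.92 beside -1.63. Scaled CPM of the 10 summed to 3734, 3323 and 3503 in Astro and to 779, 1068 and 1796 in PAP. As a share of all counts they made up 0.343%, 0.303% and 0.354% of Astro and 0.0834%, 0.113% and 0.182% of PAP.

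The spread between PAP libraries differed among the genes. The coefficient of variation was 2.29 to 37.3% in Astro and 34.7 to 137% in PAP, where the median gene with at least 50 CPM in Astro had 13.9% and 67.1%. PAP libraries differed by more than 8-fold for 4 of the 10, beside 35.8% of the 4287 genes at that level, and Astro libraries for 0 of the 10, beside 0.163%. Hes5 in animal 1 and Rorb in animal 2 were at or under 3 counts, which 27.1% of those genes were in at least 1 PAP library.

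Per kilobase of exonic sequence, the scale on which genes can be compared, the order in Astro was Id4, Lhx2, Sox2, Sox9, Hes5, Rorb, Nfix, Nfia, Nfib and Zbtb20. The levels were 332 ± 32.9 CPM per kb for Id4, 148 ± 3.4 for Lhx2, 113 ± 24.2 for Sox2 and 90.2 ± 17.9 for Sox9 (SD, n = 3), and 7.29 for Zbtb20. Of the neighbours in this order, Sox2 and Sox9, and Rorb and Nfix, overlapped between libraries. Per kilobase of 1 transcript per gene in place of all exons, Nfix (27.2 CPM per kb) came before Rorb (24.4) and Nfib (19.1) before Nfia (16.8), and Lhx2 read 229, so the order of these neighbours depends on the length used. In PAP the order was Lhx2, Hes5, Nfix, Id4, Sox9, Nfia, Rorb, Zbtb20, Nfib and Sox2, from 52.1 ± 54.1 to 4.61 ± 1.83 CPM per kb, and each pair of neighbours overlapped, so this order is not fixed beyond the spread.

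Levels of the astrocyte genes for membrane and cytoplasmic proteins were set beside those of the regulators. Of these 25 genes, 8 were called lower (among them Slc1a3, Gjb6, Aldh1l1, Aldoc, Atp1b2, Slc7a10 and Acsl6) and none higher, beside 15.4% and 5.92% of all genes, and with the block 1, Acsl6, remained, with an adjusted p of 0.0403 in edgeR and an antisense neighbour, Gm12224, whose reads cannot be told apart from its own. Their median log2 fold change was -1.55, beside -0.53 over all genes, and with the block -1.70, beside -1.63. Groups did not overlap, with PAP lower, for 20 of 25, beside 35.1% of all genes. The 10 regulators had 5.05, 4.42 and 7.64 CPM per 100 CPM of that list in Astro, and 8.81, 5.36 and 5.23 in PAP. Of the 25 genes, 22 had their highest PAP level in animal 3 and 22 their lowest in animal 1. Of the 10 regulators, 5 were highest in animal 3 and 6 lowest in animal 1, among the latter Id4, Lhx2, Nfix and Hes5. The part that the low astrocyte signal of PAP of animal 1 has in these values was not tested.

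**Figure D4:**
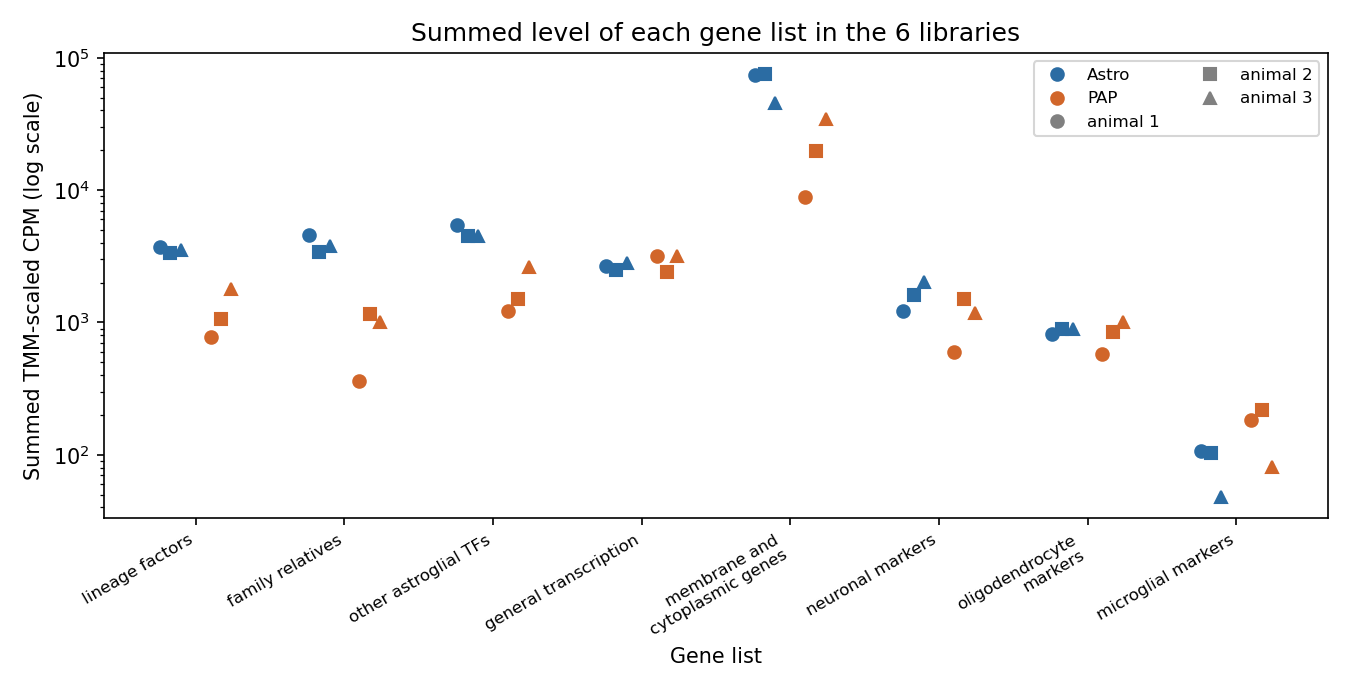
Summed level of each gene list in the 3 Astro and 3 PAP libraries, in TMM-scaled CPM on a log axis, with 1 symbol per animal. The sums of the 10 regulators, of their relatives and of the astrocyte genes are lower in each PAP library, and the general transcription machinery has sums of like size in both compartments.

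A list of 15 genes, all tested, held known partners and reported targets of SOX9, NFIA and LHX2. Some of its members are neither, such as Tcf4, a partner of helix-loop-helix factors. The list included 4 called lower, Apcdd1, Mmd2, Lmo1 and Lmo2, and none higher, beside 15.4% and 5.92% of all genes. None was called with the block. Mmd2, a target described for SOX9 and NFIA, was at 2198, 2119 and 1756 CPM in Astro and at 287, 517 and 901 in PAP, with a log2 fold change of -1.83 ± 0.43 and an adjusted p of 0.0269 in edgeR, or 0.199 with the block. Tcf4, which pairs with helix-loop-helix factors and is held by ID proteins, was at 526, 549 and 651 CPM in Astro and at 1035, 730 and 683 in PAP, without passing (0.50 ± 0.26, adjusted p 0.252). The median of the list was -1.69.

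For other regulators of astroglia, a list of 35 made up mostly of transcription factors, the log2 fold changes centred on -1.80 (median). Of these, 5 were called lower and 1, Gli1, higher, beside 15.4% and 5.92% of all genes, and none with the block. For 24 of the 35, PAP lay below Astro without overlap, beside 35.1% of all genes. The 5 were Gli2, Gli3, Otx1, Tcf7l1 and Pou3f4, each at or under 3 counts in every PAP library. Hopx, the most abundant of the list in Astro, stood at 2217 ± 419 CPM in Astro and 639 ± 461 in PAP (SD, n = 3) and did not pass (adjusted p 0.114 in edgeR). Its exons overlap Hopxos on the opposite strand, with 12164, 8850 and 9271 counts in Astro and 63, 340 and 920 in PAP, so its level is uncertain. Summed levels were 4510 to 5444 CPM in Astro and 1218 to 2628 in PAP.

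The general transcription machinery (39 genes for RNA polymerase II subunits and basal factors, nuclear proteins of every cell) had a median of -0.50, beside -0.53 over all genes, and with the block -0.84, beside -1.63. The other lists had block medians of -4.40 (relatives), -2.08 (Notch and BMP), -1.98 (partners and targets) and -3.26 (other astroglial factors). Taf10 was called higher (1.37 ± 0.24, adjusted p 0.0208 in edgeR) and Taf7 and Taf8 lower, beside 5.92% and 15.4% of all genes, and none with the block, where Taf10 had an adjusted p of 0.206. Taf10 lies across from Ilk on the other strand, and reads of the pair may be mixed. Sums were 2481 to 2791 CPM in Astro and 2420 to 3201 in PAP.

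Transcription factors of other cell types were measured in the same libraries, and their calls are to be read beside 15.4% of all genes called lower and 5.92% higher. Those of neurons (16 genes, 13 tested) summed to 311 to 447 CPM in Astro and 309 to 708 in PAP, with Mef2c called higher and Bcl11b and Prox1 lower. Oligodendrocyte factors (9 genes, 8 tested) summed to 252 to 323 CPM and 11.7 to 217, with Nkx2-2, Myrf and St18 called lower. Microglial factors (9 genes, 6 tested) summed to 68.9 to 84.7 CPM and 95.2 to 188, with Ikzf1 called higher and Sall1 among those called lower, and vascular factors (12 genes, 4 tested) summed to 23.4 to 35.1 CPM and 0 to 59.8, with Sox7 and Lef1 lower. With the block none of the genes in these 4 lists was called. Of these lists the microglial one has no PAP sum under its Astro sums. Ikzf1, described below, made up most of that sum in each PAP library. Of the 9 microglial genes, 4 stayed at or under 3 counts in every PAP library. What part the other cell types have in the level of Nfix, Nfia or Zbtb20, which neurons also make, was not tested.

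The genes whose pattern over the 6 libraries lay nearest to the mean of the 10 regulators were sought among 4268 others with at least 50 CPM in Astro, by the root mean square distance of centred log2 levels. They were Rab11b (distance 0.0938), Smox (0.117), Map1lc3b (0.123), Sf3b6 (0.137) and Mmd2 (0.146). Of the 10 themselves, Lhx2 lay nearest to that mean, at 0.51, with 7.26% of the candidates nearer, and Rorb farthest, at 2.08, with 83.7% nearer.

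Sequence in the 3′ untranslated regions is shown for letters bound by QKI, an RNA-binding protein of glia that recognizes ACUAA followed by C or U and has been studied in mRNAs of astrocyte processes. The letters ACTAAC and ACTAAT were searched on the sense strand of 1 transcript per gene (GENCODE M21, GRCm38), and 18 were found in 8 of the 10 genes. None was in Sox9 or Hes5. One site per gene is shown, 30 bases each, 5′ to 3′ on the transcript's strand, with the hexamer in capitals, for the called genes Sox2 and Id4 (chr3:34652351-34652380 and chr13:48263367-48263396, plus strand) and for Lhx2 (chr2:38369219-38369248, plus), Nfia (chr4:98117872-98117901, plus), Nfib (chr4:82296524-82296553, minus), Nfix (chr8:84705033-84705062, minus), Rorb (chr19:18937412-18937441, minus) and Zbtb20 (chr16:43624415-43624444, plus), which were not called.
Sox2: gtatatatttgaACTAATaccatccttata
Id4: ttttgaagctttACTAATataccagagcac
Lhx2: gaggtttgagcaACTAACtaaccacgtttt
Nfia: tgggactgaaacACTAACtttgtaaaatgt
Nfib: gcacttacagtcACTAATtcccttaaggtt
Nfix: tatatatatagtACTAATggatttggtgtg
Rorb: tgcaaattcgtaACTAACtgtcttggaaag
Zbtb20: aactgcacaattACTAACccgaagcatcat
The Lhx2 stretch holds another ACTAAC that overlaps the one in capitals by 2 letters. The form with T was in Sox2 and Id4, of the 3 called genes, and in 5 of the 7 others. The form with C was in none of the 3 called genes and in 4 of the 7 others (Lhx2, Nfia, Rorb and Zbtb20), and Nfib, Nfix and Hes5 lacked it too. A share over all genes was not taken for this form alone. The regions differ in length, with 7636 bases in Nfia, 7275 in Rorb, 23858 in Zbtb20 and 604 in Lhx2. Those of the called genes have 1086 bases in Sox2, 2250 in Sox9 and 3093 in Id4. Over all genes, 32.5% of 12481 such regions hold either hexamer. The 10 genes have long regions (median 3522 bases against 1063), and per kilobase they hold 0.316 hexamers against 0.344 over all genes.

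In gene structure, the 3 called genes are short, with spans of at most 5537 bp and 1 to 3 exons, and of the 7 others 6 span more than 30 kb, with Hes5 the exception. The rank correlation of log2 fold change with the number of exons was 0.78 over the 10 genes and 0.11 over the 12614 coding genes tested. With span it was 0.60 over the 10 and -0.02 over all. Genes of at most 10 kb were called lower in 14.5% of 2953 cases, and the 9661 longer genes in a like share (15.0%). The 10 genes share these libraries, and the values are descriptions.

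**Figure D5:**
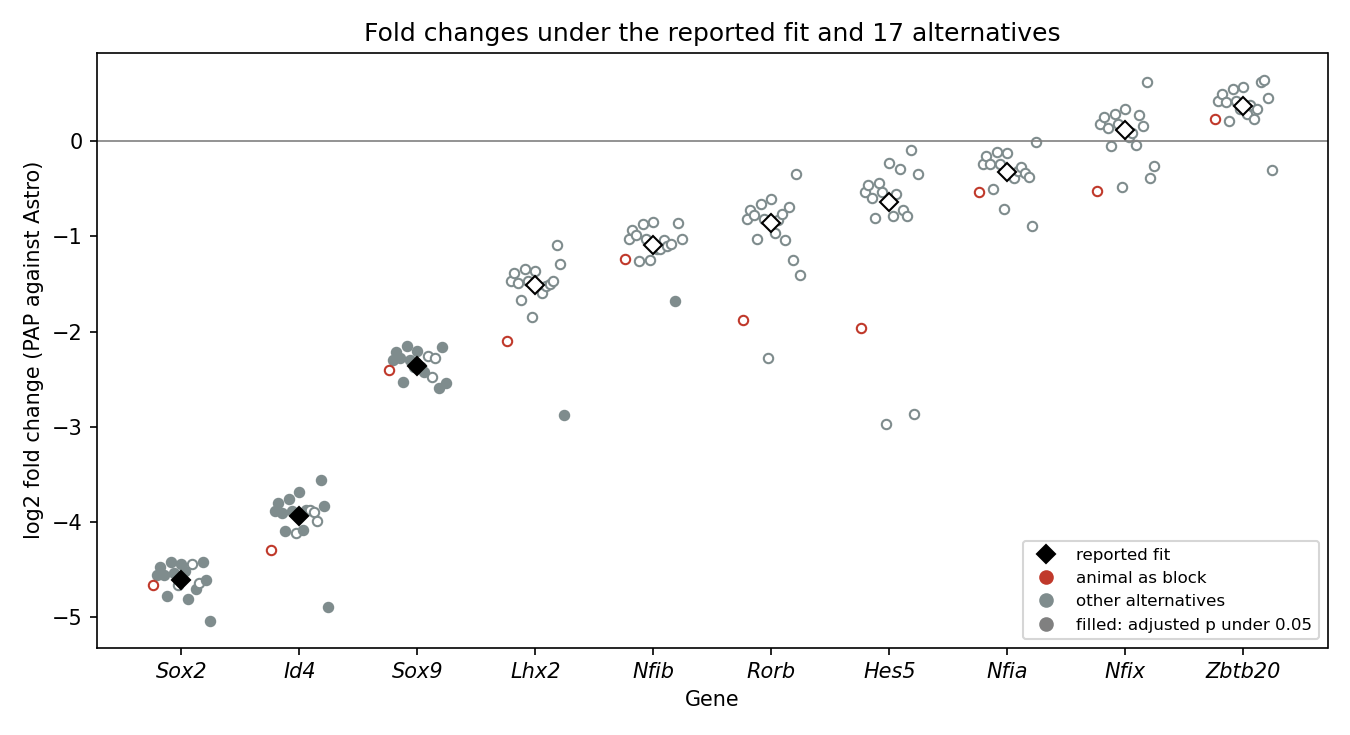
Log2 fold change of each of the 10 genes under the reported model and under the 17 alternatives, with a diamond for the reported model and filled symbols where the adjusted p was under 0.05. Sox2, Sox9 and Id4 stay well below 0 under each alternative and are called in 13, 12 and 12 of the 17, and Nfix and Zbtb20 lie on both sides of 0.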

How the data were processed

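Ribosome-bound RNA was measured in 48 samples, 8 technical replicates of 3 Astro and 3 PAP libraries. Per the labels' protocols, lysates were pre-cleared before the pulldown, cDNA was made with SMART-Seq v4 and libraries with Nextera XT, a kit that does not mark strand. Per the submitters' processing notes, bcl2fastq 2.18.0.12, Trim Galore 0.4.1, STAR 2.5.2b, SAMtools and HTSeq 0.5.3 were used with build mm10. The strand setting and annotation release are not given in the sources used here. The deposited values are raw counts per gene, whole numbers with no scaling by the authors.

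Technical replicates were summed. Symbols, positions and lengths came from GENCODE M21, in which 47224 IDs (99.1%) were found. After filterByExpr (minimum count 10) and TMM scaling, PAP was set against Astro by quasi-likelihood tests (edgeR 4.0.16, R 4.3.3), with Benjamini-Hochberg adjustment over all genes and a threshold of 0.05. The standard error is the log2 fold change over the root of the test statistic. Libraries were paired by the C number in their titles, read as the animal, and a model with the animal as a block was also fitted. Deviations from the group means correlated at 0.03, 0.02 and -0.03 within these pairs. Between libraries of unlike number the correlations were -0.06 to 0.04, so the pairing does not show in these values. Intervals over 3 libraries reflect the spread between animals, and floors cover counting error only. Other settings were DESeq2 1.42.0, limma 3.58.1 voom, 3 other scalings, 2 filters, equal depth, parts of the technical replicates and leaving out each library. The code was tested on simulated counts.

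The members and lists were chosen with earlier results of these data known. All 10 regulators are named. Genes of other lists are named where they are relatives, pass the threshold or are among the 3 most abundant of their list in Astro, and the 5 most similar profiles used log2(CPM + 1). Some genes that this rule would name are not reported here.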

Additional observations from a re-analysis of the deposited data

How the results depend on the processing

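Over 170 comparisons of single genes with 17 alternatives, 147 kept direction and call, 14 lost the call, 2 gained one and 7 changed sign. For Nfix the sign changed with the replicate block by animal (-0.53), with no filter (-0.052), with voom (-0.48), without Astro of animal 1 (-0.04), without PAP of animal 2 (-0.39) and without PAP of animal 3 (-0.26). For Zbtb20 it changed without PAP of animal 3 (-0.30). Leaving out 1 library gave -0.39 to 0.62 for Nfix and -0.30 to 0.64 for Zbtb20. The regulators called lower, 3 as reported, were 0 with the block and with voom and 0 to 4 when 1 library was left out, and none was called higher under any of the alternatives. Over all 14618 genes tested, 865 were called higher and 2250 lower. With the replicate block these were 128 and 5. With no filter 571 of 23924 were called higher. A mean of at least 100 counts left 826 of 10084 genes called lower and equal depth 993 of 11243. DESeq2's Wald test called 1685 higher and 3456 lower. Leaving out a library gave 114 to 1251 called higher and 1 to 3335 lower, with 114 to 135 and 1 to 5 where it was an Astro library (12851 to 12938 genes tested, 16390 to 16523 without a PAP library). The cause was not tested. The median over all genes moved from -0.53 to -1.63 with the block, -0.37 with library size alone, -1.04 with no filter, -0.32 with the higher filter, -1.62 with voom, -0.22 at equal depth, -0.40 to -0.37 without 1 Astro library and -0.95 to -0.86 without 1 PAP library. Depth limits PAP, where Sox2 rests on 12 to 41 counts.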

Other observations

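Some factors of other lists, named because they passed the test, were higher in PAP. Gli1, a zinc finger effector of Hedgehog signalling, stood at 1.67, 2.00 and 2.44 CPM in Astro and at 69.4, 34.5 and 108 in PAP, with a log2 fold change of 5.11 ± 0.83 and an adjusted p of 0.0208 in edgeR, or 0.206 with the block. Its relatives Gli2 and Gli3 were called lower, with adjusted p of 0.0497 and 0.0223 in edgeR. Gli2 had 328, 162 and 324 counts in Astro and 0, 0 and 3 in PAP, and Gli3 had 428, 519 and 362 in Astro and 1, 0 and 0 in PAP. Exons of Gli1 overlap Arhgap9 on the opposite strand, which had 3, 1 and 5 counts in Astro and 74, 7 and 132 in PAP, and the part of shared reads was not tested. Ikzf1, a zinc finger factor of blood cells and microglia, was at 0.591, 0.176 and 0.457 CPM in Astro and at 120, 118 and 78.0 in PAP, at or near the floor in Astro (log2 fold change 7.97 ± 0.85, adjusted p 0.00652 in edgeR, 0.0679 with the block). Mef2c, a factor of neurons and microglia, was at 24.9, 25.1 and 34.7 CPM in Astro and at 313, 207 and 85.6 in PAP (2.84 ± 0.59, adjusted p 0.0208 in edgeR, 0.206 with the block).

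Transcripts across from Hes5 and Id4 were counted under their own IDs. In libraries that do not mark strand, reads of each pair cannot be told apart. Gm20421, opposite to Hes5, had 42.1, 39.6 and 41.0 counts per 100 Hes5 counts in Astro and 40.4 and 58.0 in PAP of animals 2 and 3, and it was at 0 in PAP of animal 1, where Hes5 was at 0 too. A330033J07Rik, opposite to Id4, had up to 13.7 counts per 100 Id4 counts in Astro and 13.2, 16.3 and 9.90 in PAP of animals 1, 2 and 3.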
